A study of Homo sapiens with 34 samples.

Results

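The HOX genes and the 3 CDX genes encode homeodomain transcription factors, and 41 of them (38 HOX genes, CDX1, CDX2 and CDX4) were listed and found among the 23189 gene symbols of the read count table. Each gene was read from the RefSeq transcript with the largest total over the libraries.

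In vertebrates the HOX genes lie in the HOXA, HOXB, HOXC and HOXD clusters, and they are switched on in sequence along the trunk, from low paralog numbers (anterior) to high ones (posterior). Polycomb proteins hold the clusters silent in pluripotent cells, while retinoic acid, WNT and FGF signals open them. The CDX genes, relatives of the HOX genes in the ParaHox family, act downstream of WNT and FGF in the posterior embryo and activate central HOX genes, and CDX2 also marks intestinal endoderm and trophectoderm.

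RNA was sequenced from H1 cells, an established human embryonic stem cell (ESC) line, that were driven toward cardiomyocytes. CHIR99021, a GSK3 inhibitor that turns on WNT signalling, was given for the first 24 hours, IWP2, which blocks WNT secretion, from day 2 to day 5, and insulin was added on day 7. Cells carried a lentiviral GIPZ shRNA against NKX2-5, ZEB2 or ZNF503 and had been selected with puromycin, as had the WT cells, whose vector was empty or held an shRNA against GFP. Each gene was targeted by 1 shRNA, so a difference between lines cannot be told apart from a feature of that shRNA or that line. Groups of 2 libraries at days 0, 2, 6 and 10 were compared, without ZNF503 shRNA cells at day 10, which were not analysed here.

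Totals over 1 transcript per gene were 38772103 to 90814577 counts on day 0, 14630405 to 87850810 on day 2, 13807473 to 61514547 on day 6 and 9189943 to 29549874 on day 10. Of the 34 libraries 30 were used: in WT and ZEB2 shRNA cells at day 10, the columns of replicates 1 and 2 hold 1077 rows beyond the 41627 accessions and do not follow them, so replicates 3 and 4 stand for these groups. All other groups are replicates 1 and 2, NKX2-5 shRNA cells at day 10 among them. In comparisons across these sets, a difference of replicate set cannot be told apart from one of line or day. Levels are CPM, the usual share of a library's counts scaled to a common total, with totals adjusted by TMM, a factor that aligns libraries on most genes. With 0 counts the limit is 3 counts, or between 0.0336 and 0.0800 CPM in day 0 libraries and between 0.0927 and 0.323 CPM in day 10 libraries, for counting error only. The targeted genes were read first. NKX2-5 stood at 1.30% ± 0.243 of its WT level (SD, n = 2) at day 6 and 1.38% ± 1.26 at day 10 in its shRNA line, and ZNF503 was at 6.98% ± 0.297 at day 6 in its own. ZEB2 was at 58.5% ± 1.83 at day 6 and 49.5% ± 0.00779 at day 10 in its line. These SDs leave out the spread of WT cells, where ZEB2 was at 95.4 ± 1.90 CPM at day 6 and 111 ± 8.18 CPM at day 10. The targets also lay below WT in other lines: at day 6 ZEB2 was at 20.5 CPM in NKX2-5 and 11.8 CPM in ZNF503 shRNA cells, under the 55.8 CPM of the ZEB2 line, and ZNF503 was at 0.745 CPM in NKX2-5 shRNA cells and 0.629 CPM in its own line, with 9.02 CPM in WT cells. NKX2-5 at day 6 was at 2.48 CPM in ZNF503 and 36.0 CPM in ZEB2 shRNA cells. Its own line was at 0.877 CPM and WT cells at 67.3 CPM. ZNF503 in ZEB2 shRNA cells was instead above WT at day 6, at 12.5 CPM. At day 10 NKX2-5 was at 30.4 CPM in ZEB2 shRNA cells, with 137 CPM in WT cells. Earlier values were less clear. NKX2-5 was at 43.0% ± 3.34 of WT at day 0 and 24.3% ± 34.3 at day 2, ZEB2 at 118% ± 86.7 and 66.4% ± 5.43, and ZNF503 at 127% ± 31.4 and 90.1% ± 35.0.

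The members fell into 4 levels. Of the 41 genes, 12 reached 1 CPM in both libraries of a group: HOXB2, HOXB3, HOXB4, HOXB5, HOXB6, HOXB7, HOXB13, HOXC4, HOXD3, CDX1, CDX2 and CDX4. Another 17 passed 3 counts in some library without reaching that level, and the highest single value among them was 1.41 CPM, for HOXA13. A further 7 genes, HOXA2, HOXA9, HOXA10, HOXA11, HOXB9, HOXC9 and HOXD12, never held more than 3 counts. HOXA4, HOXA5, HOXA6, HOXC11 and HOXC12 held 0 counts in all 30 libraries. The HOXB cluster carried most HOX reads in every library. Per kb of transcript, it gave from 76.6% to 99.8% of the HOX signal at days 6 and 10. The share was 93.6% to 96.3% in WT cells at day 0, 97.3% to 98.0% at day 6 and 98.9% to 99.8% at day 10, and 94.5% to 95.8% in ZEB2 shRNA cells at day 10.

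**Figure D1:**
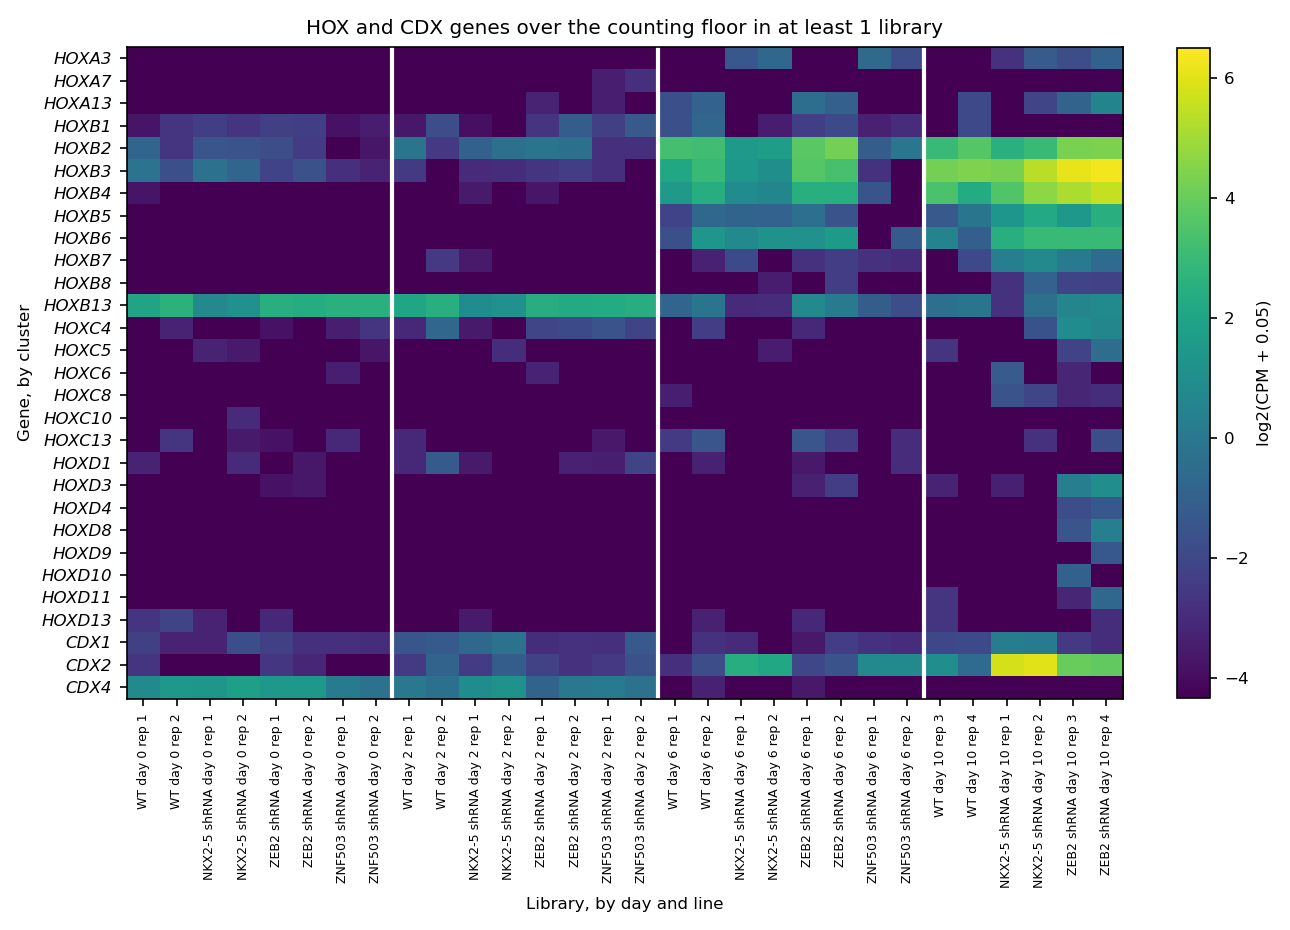
Heat map of log2(CPM + 0.05) for the 29 HOX and CDX genes with more than 3 counts in at least 1 library, with genes in rows by cluster and the 30 libraries in columns by day and line. HOXB13 and CDX4 are bright at days 0 and 2, HOXB2 to HOXB6 from day 6, CDX2 in NKX2-5 and ZEB2 shRNA cells at day 10, and HOXD3, HOXD4 and HOXD8 stand out from the other libraries in ZEB2 shRNA cells at day 10.

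WT cells were followed first, to ask when the members are switched on in the cardiac protocol. At days 0 and 2 the HOXB genes next to the anterior end were close to silent. HOXB2, a paralog group 2 gene active in the hindbrain, was at 0.534 and 0.105 CPM at day 0, at 0.836 and 0.123 CPM at day 2, and at 9.84 and 9.07 CPM at day 6. The day 6 libraries lay far above all earlier ones, 4.90 ± 0.61 above day 0 on the log2 scale (± standard error, SE; adjusted p = 6.2e-05). Here and throughout, p values come from edgeR's quasi-likelihood test, adjusted by Benjamini and Hochberg's method over the whole table, and they measure the spread between these libraries, which the study describes as biological replicates and the labels do not tie to separate differentiations. In bulk samples fewer cells of a type and less RNA per cell cannot be told apart. HOXB3, its neighbour, rose from 0.827 and 0.262 CPM at day 0 to 4.46 and 8.06 CPM at day 6 (log2 fold change 3.56 ± 0.48 SE, adjusted p = 0.00012). It went on to 18.8 and 21.2 CPM at day 10, above both day 6 libraries (log2 fold change 1.69 ± 0.40 SE, adjusted p = 0.0045). HOXB4, the first central gene of the cluster, known from blood stem cell work, held 1 count in the 2 day 0 libraries and none at day 2, against 2.77 and 5.36 CPM at day 6. The ratio of day 6 to day 0 counts was 336 (95% counting interval 59.8 to 13321, adjusted p = 3.9e-05).

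The next genes along the cluster were lower and less even between replicates. HOXB5 had 0 counts at days 0 and 2 and stood at 0.173 and 0.577 CPM at day 6, at least 4.74-fold higher than the floor of 3 counts per library at day 0 (adjusted p = 0.0070). Also without a count before day 6, HOXB6 was at 0.260 and 2.55 CPM at day 6, at least 17.7-fold higher (adjusted p = 0.0046), with most of that mean from 1 library. HOXB7 held 0 and 2 counts at day 6, and HOXB8 and HOXB9 held none that day. So the genes over the floor at day 6 ran without a gap from HOXB1, at 0.260 and 0.553 CPM, to HOXB6, with HOXB13 apart from them. Some of these values share reads. HOXB4 and HOXB6 have exons inside the longer HOXB3 transcripts on the same strand, HOXB2 and HOXB3 lie opposite HOXB-AS1, and HOXB3, HOXB5 and HOXB6 lie opposite HOXB-AS3. Whether counting used strand is not given in the sources used here, so reads of a gene and its antisense partner cannot be told apart.

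Levels of different genes were compared per kb of transcript. In WT cells at day 6 HOXB2 led with 5.62 ± 0.323 CPM per kb (SD, n = 2), followed by HOXB4 with 2.03 ± 0.915 and HOXB3 with 1.90 ± 0.770. The libraries of HOXB3 and HOXB4 overlapped, so their order was not resolved, while both lay under HOXB2. HOXB6 came next with 0.838 ± 0.966 CPM per kb and HOXB5 with 0.202 ± 0.154, and these also overlapped. At day 10 HOXB3 with 6.06 ± 0.508 CPM per kb and HOXB2 with 6.01 ± 1.99 were level within their spread, and HOXB4 stood at 3.89 ± 1.93.

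**Figure D2:**
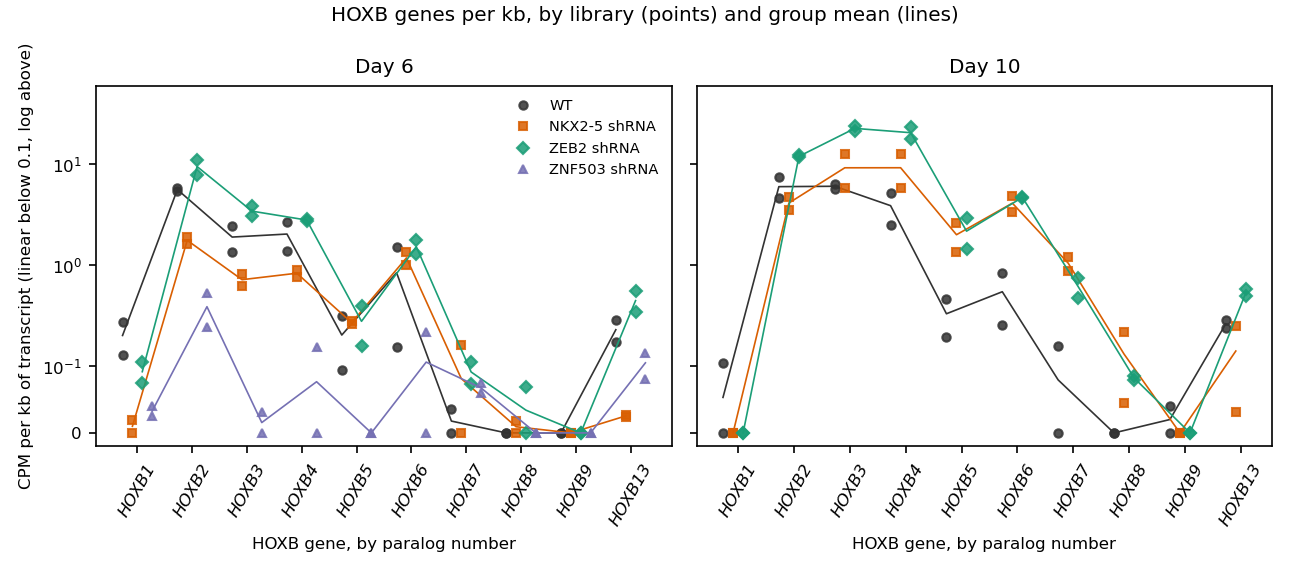
CPM per kb of transcript for the 10 HOXB genes at day 6 (left) and day 10 (right), by line, on an axis that is linear below 0.1 and logarithmic above; points are libraries and lines join group means. At day 6 ZNF503 shRNA cells lie under the other lines from HOXB2 to HOXB4, and at day 10 ZEB2 shRNA cells lie above WT cells from HOXB2 to HOXB6.

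A pair of members went the other way. HOXB13, the most posterior gene of the cluster and a prostate and hindgut regulator, had the highest level of the HOX genes in WT cells at day 0, 1.64 ± 0.506 CPM per kb (SD, n = 2), from libraries at 3.90 and 6.07 CPM. It stayed at 4.18 and 5.40 CPM at day 2 and fell to 0.520 and 0.866 CPM at day 6 (log2 fold change -2.76 ± 0.37 SE, adjusted p = 0.0001, day 6 against day 0). CDX4, at 1.73 and 2.69 CPM at day 0, was at 0.965 and 0.736 CPM at day 2, where the difference missed 5% FDR (adjusted p = 0.053). It was at 0 and 2 counts at day 6, so that the day 0 rate was 71.7 times that of day 6 (95% counting interval 19.6 to 597, adjusted p = 0.00011), and at 0 in both libraries at day 10. CDX2 passed only late: it was at 0.0867 and 0.241 CPM at day 6 and at 1.91 and 0.645 CPM at day 10 (log2 fold change 2.93 ± 0.90 SE, adjusted p = 0.018).

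Of the 41 members 8 passed the filter on low counts in WT cells, and a gene can pass it through a single group. Passing therefore selects genes that were on at some day. It left out HOXB1 and HOXA13, which were over the floor at day 6. From day 0 to day 6, 5 of them rose and 2 fell at 5% FDR, against 31.3% of all 17217 genes tested that rose and 29.6% that fell, and 6 passed the study's thresholds for that day (8-fold, 1% FDR), against 10.2%. Day 10 against day 0 gave 6 higher (39.1% of all genes) and 2 lower (34.7%), with 7 past the thresholds (15.5%). Between days 2 and 6 there were 5 higher (25.9%) and 2 lower (23.9%), with 4 past the thresholds (8.35%). HOXB4, HOXB5 and HOXB6 passed the filter through days 6 and 10, and CDX4 through days 0 and 2. This fixed their direction, so these counts cannot be read as support against the shares of all genes. Without WT day 6 replicate 2, HOXB5 lost 5% FDR against days 0 and 2 (adjusted p = 0.077 and 0.13) and HOXB6 against day 2 (0.084), both lost it against day 2 without WT day 2 replicate 1 (0.12 and 0.084) and HOXB5 also without replicate 2 (0.064), and HOXB6 lost it at day 10 against day 0 without replicate 3 of day 10 (0.068). By contrast day 2 differed from day 0 in 1 member, HOXB3, which was lower, at 0.129 and 0 CPM (23.1% of genes were lower and 20.9% higher; 1 member against 8.36% passed the day 2 thresholds of 4-fold and 10% FDR). That call ended when WT replicate 1 of day 0 (adjusted p = 0.26), replicate 1 of day 2 (0.075) or replicate 2 of day 2 (0.16) was left out. From day 6 to day 10, HOXB3 and CDX2 rose (28.2% of genes rose and 29.2% fell) and 0 passed the thresholds, against 3.94% of genes. DESeq2 and edgeR's exact test also gave 0 there, and 2 members had an unadjusted p under 0.05. Without WT day 10 replicate 3, CDX2 no longer passed against day 6 (adjusted p = 0.26) or day 0 (0.056), and it also missed against day 6 without either day 6 library (0.10 and 0.056).

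Before differentiation the shRNA lines were compared with WT cells to ask whether the members differed at the start. HOXB13 did in NKX2-5 shRNA cells. It was at 1.67 and 2.18 CPM there, under both WT libraries (log2 fold change -1.38 ± 0.25 SE, adjusted p = 0.0040), and the same held at day 2, at 1.90 and 2.19 CPM (log2 fold change -1.26 ± 0.24 SE, adjusted p = 0.0017). ZEB2 and ZNF503 shRNA cells were between 4.79 and 5.83 CPM on both days, inside the WT range of each day. PRAC1, a neighbour of HOXB13 that lies between it and HOXB9, is named here after its values were seen, because it did not follow. In NKX2-5 shRNA cells it was higher than in WT cells, at 34.5 and 39.7 CPM against 25.5 and 24.7 at day 0 (log2 fold change 0.55 ± 0.12 SE, adjusted p = 0.012) and again at day 2 (0.79 ± 0.13 SE, adjusted p = 0.00062). PRAC1 was lower in ZEB2 shRNA cells at day 0, at 18.9 and 16.9 CPM (log2 fold change -0.51 ± 0.12 SE, adjusted p = 0.039), and in ZNF503 shRNA cells at day 2, at 9.44 and 7.56 CPM against 18.6 and 18.8 (log2 fold change -1.17 ± 0.14 SE, adjusted p = 1.8e-05). HOXB13 did not pass in either of these comparisons. PRAC1 was at 0 to 0.124 CPM in every library of days 6 and 10. Without WT day 0 replicate 2, the HOXB13 call at day 0 ended (adjusted p = 0.058), while at day 2 it held with each library left out in turn.

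**Figure D3:**
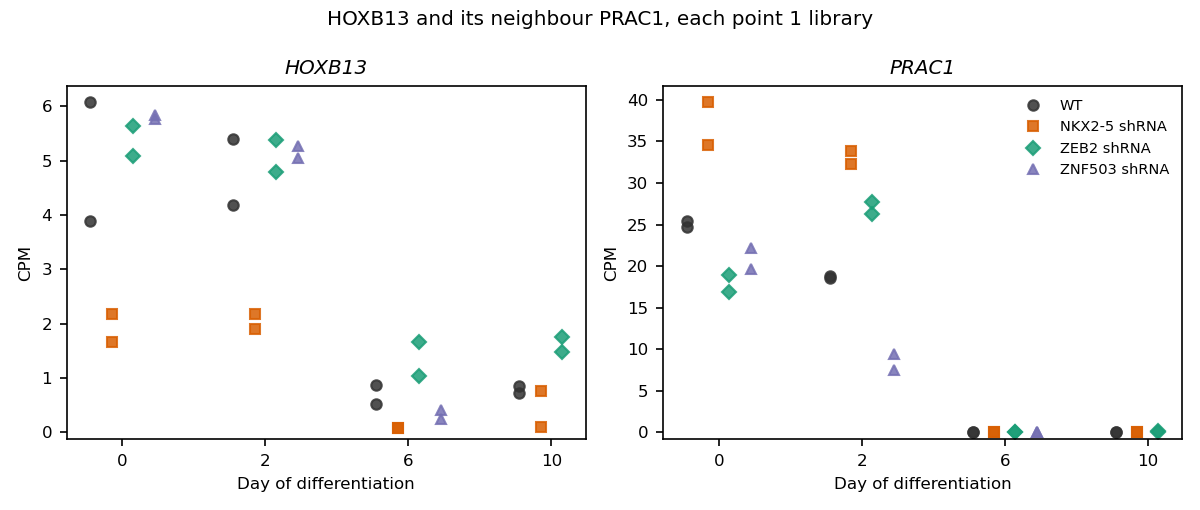
CPM of HOXB13 (left) and PRAC1 (right) by day and line, each point 1 library, on linear axes. NKX2-5 shRNA cells lie lowest for HOXB13 and highest for PRAC1 at days 0 and 2, and PRAC1 is near 0 in all libraries from day 6.

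ZNF503 shRNA cells began with less of HOXB2, HOXB3 and CDX4. HOXB2 held 0 and 2 counts in them against 20 and 4 in WT cells, a ratio of WT to ZNF503 shRNA of 18.5 (95% counting interval 4.60 to 162, adjusted p = 0.041). HOXB3 was at 0.0899 and 0.0552 CPM (log2 fold change -2.94 ± 0.71 SE, adjusted p = 0.030), and CDX4 at 1.01 and 0.773 CPM against 1.73 and 2.69 (log2 fold change -1.34 ± 0.30 SE, adjusted p = 0.022). All of them ended at 5% FDR when either ZNF503 shRNA library or 1 WT library was left out, with adjusted p from 0.086 to 0.43. At this stage ZNF503 itself was near the floor in WT cells, at 0.106 CPM, and no knockdown could be read. At day 2 HOXB2 was again lower, at 0.0898 and 0.0900 CPM against 0.836 and 0.123 (log2 fold change -2.62 ± 0.76 SE, adjusted p = 0.019), and without WT replicate 1 the log2 fold change was -0.51 (adjusted p = 0.83), with 0.17 and 0.058 when either ZNF503 shRNA library was left out. Markers differed between the lines that day. The 6 mesendoderm markers summed to 1012 to 1207 CPM in ZNF503 shRNA, 4557 to 4681 CPM in NKX2-5 shRNA and 2947 to 3050 CPM in WT cells. The 8 markers of paraxial and posterior mesoderm summed to 8.01 to 9.60, 14.2 to 19.9 and 40.1 to 41.5 CPM in the same order. ZEB2 shRNA cells were at 44.1 to 61.6 CPM. MSGN1 had 0 counts in both NKX2-5 and ZEB2 shRNA cells. The part of these cell types in the day 2 differences was not tested. CDX4 in NKX2-5 shRNA cells remained at 1.84 and 2.31 CPM at day 2, above both WT libraries (log2 fold change 1.21 ± 0.40 SE, adjusted p = 0.039), and this call was lost with any of the 4 libraries left out (adjusted p from 0.074 to 0.17).

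In counts, 4 members were tested at day 0 and 6 at day 2. NKX2-5 shRNA cells had 1 lower (7.64% of all genes lower, 8.23% higher) at day 0, where 1 passed the thresholds of 2-fold and 10% FDR (4.03%). At day 2 they had 1 higher (13% of genes) and 1 lower (13.6%), with 0 past the thresholds (1.19%), 0 by DESeq2, 1 by the exact test and 2 at an unadjusted p under 0.05. ZNF503 shRNA cells had 3 lower at day 0 (3.52% lower and 4.01% higher among all genes), all past the thresholds (2.56%), and 1 lower at day 2 (13.8% lower, 13.1% higher), also past them (2.8%). HOXB2 on both days and HOXB3 at day 0 passed the filter on low counts through the other groups. This fixed their direction in ZNF503 shRNA cells, so these counts cannot be read as support against the shares of all genes. ZEB2 shRNA cells had 0 at either day, at 5% FDR (3.93% of genes at day 0 and 0.49% at day 2) or at the thresholds (2.2% and 0.133%). DESeq2 and the exact test gave 0 as well, and 1 member had an unadjusted p under 0.05 on each day.

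At day 6, when WT cells are cardiac progenitors, the 3 lines differed from WT cells in different members. In NKX2-5 shRNA cells HOXB2, HOXB3 and HOXB4 were lower but still on. HOXB2 was at 2.72 and 3.20 CPM against 9.84 and 9.07 in WT cells (log2 fold change -1.67 ± 0.27 SE, adjusted p = 0.00026). HOXB3 was at 2.68 and 2.04 CPM against 4.46 and 8.06 (log2 fold change -1.44 ± 0.34 SE, adjusted p = 0.0035), and HOXB4 at 1.80 and 1.52 CPM against 2.77 and 5.36 (log2 fold change -1.33 ± 0.43 SE, adjusted p = 0.023). For these genes the libraries of the 2 groups did not overlap. The HOXB4 call ended without WT replicate 2 (adjusted p = 0.24) and without either NKX2-5 shRNA library (0.052 and 0.11). HOXB5, at 0.515 and 0.481 CPM, and HOXB6, at 1.69 and 2.26 CPM, lay within the WT range and did not pass (adjusted p = 0.74 and 0.66). CDX2 went the other way, at 5.29 and 4.39 CPM against 0.0867 and 0.241 (log2 fold change 4.70 ± 0.44 SE, adjusted p = 2.9e-06). HOXB13 was lower, at 0.0735 and 0.0801 CPM against 0.520 and 0.866 (log2 fold change -3.14 ± 0.65 SE, adjusted p = 0.0016).

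ZNF503 shRNA cells had the HOXB cluster nearly silent. HOXB2 was at 0.407 and 0.891 CPM (log2 fold change -3.82 ± 0.34 SE, adjusted p = 2.2e-06). HOXB3 held 2 and 0 counts against 103 and 335 in WT cells, a ratio of WT to ZNF503 shRNA of 150 (95% counting interval 41.3 to 1244, adjusted p = 2.6e-06). HOXB4 was at 0.305 and 0 CPM (log2 fold change -4.88 ± 0.66 SE, adjusted p = 6.7e-05). The drop extended to the lower genes. HOXB5 had 0 counts, at least 2.74-fold lower than in WT cells (adjusted p = 0.0070, and 0.065 without WT replicate 2), and HOXB6 was at 0 and 0.365 CPM, a range that overlapped the WT libraries (adjusted p = 0.025, but 0.79 without WT replicate 2 and 0.17 without ZNF503 shRNA replicate 1). CDX2 was higher, at 1.68 and 1.74 CPM (log2 fold change 3.21 ± 0.47 SE, adjusted p = 0.00012). HOXB13, at 0.407 and 0.243 CPM, did not pass (adjusted p = 0.10).

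Weak members of the HOXA cluster separated the same lines. HOXA3 had 0 counts in WT and ZEB2 shRNA cells and was at 0.331 and 0.561 CPM in NKX2-5 shRNA cells (at least 4.41-fold higher than in WT, adjusted p = 0.0035) and at 0.611 and 0.243 CPM in ZNF503 shRNA cells (at least 4.22-fold, adjusted p = 0.0051). HOXA13, a limb and hindgut gene at the other end of the cluster, was the reverse: it had 0 counts in NKX2-5 and ZNF503 shRNA cells and 0.260 and 0.481 CPM in WT cells, which is at least 4.35-fold and 2.70-fold above those lines (adjusted p = 0.0026 and 0.0064). These values rest on 6 to 42 counts a library where the gene was present, and HOXA3 lies opposite HOXA-AS3 while HOXA13 lies opposite HOTTIP.

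ZEB2 shRNA cells did not pass for any member at day 6. Their HOXB2, at 13.3 and 18.7 CPM, and HOXB3, at 12.6 and 10.0 CPM, were above both WT libraries with log2 fold changes of 0.75 ± 0.26 SE (adjusted p = 0.086) and 0.86 ± 0.32 SE (adjusted p = 0.12). HOXB4 was at 5.68 and 5.53 CPM (adjusted p = 0.56).

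Of the 41 members 9 passed the filter at day 6. NKX2-5 shRNA cells had 2 higher (24.4% of all genes) and 5 lower (24.7%), with 4 past the thresholds of 8-fold and 1% FDR (4.71%). ZNF503 shRNA cells had 2 higher (27.2%) and 6 lower (28.5%), with 7 past them (3.91%). HOXA3 and CDX2, the members that were higher, passed the filter through the NKX2-5 and ZNF503 shRNA libraries. HOXA13, with 0 counts in both lines, passed it through the other groups. This fixed their direction, so the counts cannot be read as support against the shares of all genes. ZEB2 shRNA cells had 0 at 5% FDR (11% of genes) and 0 past the thresholds (0.462%); DESeq2 and the exact test gave 0, and 2 had an unadjusted p under 0.05. The makeup of the cultures moved with these groups. The summed level of 7 cardiac markers was 8109 to 10011 CPM in WT and 4365 to 4833 CPM in ZEB2 shRNA cells, against 41.9 to 53.7 CPM in NKX2-5 and 174 to 222 CPM in ZNF503 shRNA cells. The 8 hepatic and endoderm markers summed to 335 to 680 CPM in WT and 318 to 449 CPM in ZEB2 shRNA cells, against 3169 to 3268 and 2412 to 2551 CPM in the other lines. All 8 reached 1 CPM in both libraries of those other lines, 7 did in WT and 6 in ZEB2 shRNA cells. The part of these cell types in the differences was not tested.

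**Figure D4:**
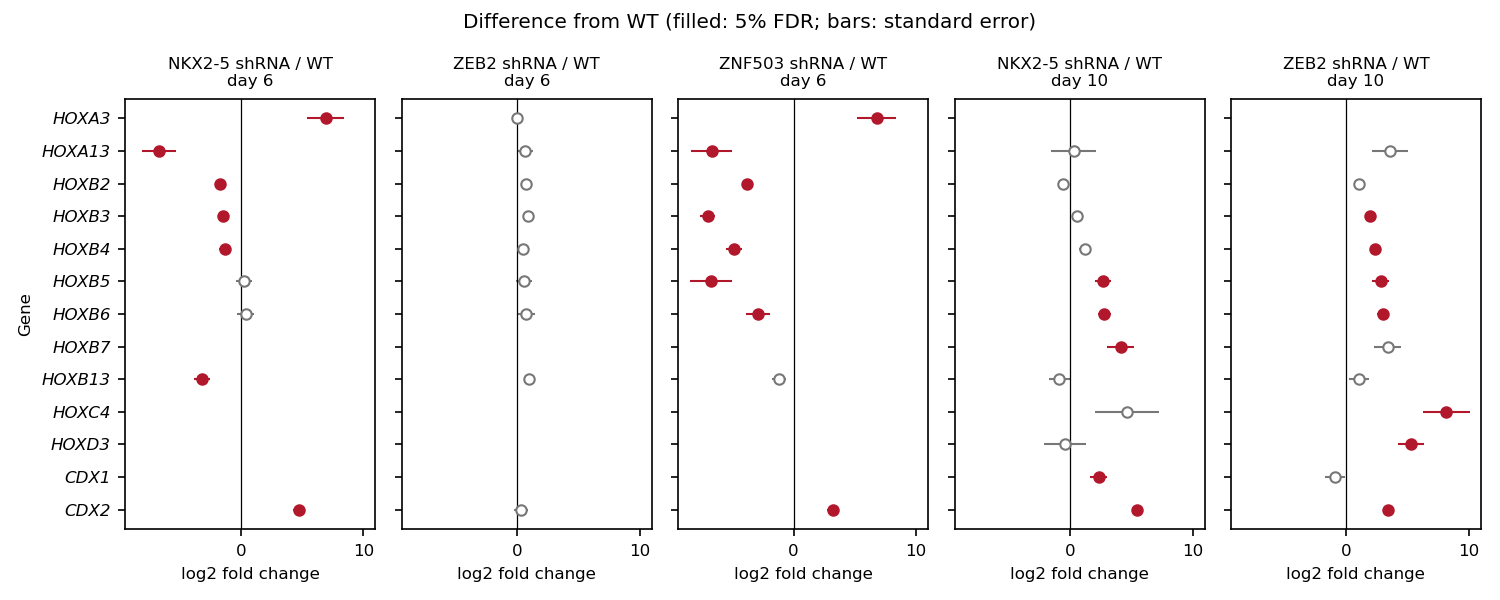
Log2 fold change from WT, with its standard error as a bar, for the 13 members tested at day 6 or day 10 in each shRNA line; filled red points passed 5% FDR, open points did not, and a missing point was under the filter. HOXB2 to HOXB4 lie left of 0 in NKX2-5 and ZNF503 shRNA cells at day 6, no gene is filled in ZEB2 shRNA cells at day 6, and CDX2 is right of 0 and filled in the other 4 panels. Points against a group with 0 counts, such as HOXA3 at day 6 and HOXC4 in ZEB2 shRNA cells at day 10, depend on the prior count of the fit.

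At day 10 all calls against WT cells were rises. In ZEB2 shRNA cells HOXB3 reached 70.1 and 80.2 CPM against 18.8 and 21.2 in WT cells (log2 fold change 1.90 ± 0.35 SE, adjusted p = 0.013) and was at 22.8 ± 2.18 CPM per kb (SD, n = 2). HOXB4 stood at 36.1 and 46.5 CPM against 10.5 and 5.05 (log2 fold change 2.37 ± 0.47 SE, adjusted p = 0.015), and its 20.6 ± 3.71 CPM per kb overlapped the libraries of HOXB3. HOXB5 and HOXB6 were higher too, HOXB5 at 2.66 and 5.42 CPM against 0.361 and 0.860 (log2 fold change 2.81 ± 0.68 SE, adjusted p = 0.030). HOXB6 was at 8.03 and 7.72 CPM against 1.39 and 0.430 (log2 fold change 2.99 ± 0.52 SE, adjusted p = 0.011). HOXB2, at 19.8 and 20.6 CPM against 7.73 and 12.5, lay above WT without passing (adjusted p = 0.072), and so did HOXB7, at 1.02 and 0.640 CPM (adjusted p = 0.075), and HOXA13, at 0.494 and 1.41 CPM (adjusted p = 0.14). Summed over HOXB2 to HOXB6 the level was 137 and 161 CPM, against 38.8 and 40.0 CPM in WT cells and 44.8 and 88.4 CPM in NKX2-5 shRNA cells.

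ZEB2 shRNA cells at day 10 also had reads of the HOXC and HOXD clusters, and HOXC4 and HOXD3 reached 1 CPM in both libraries there and in no other group. HOXC4 was at 1.88 and 1.49 CPM, at least 7.08-fold above WT cells, which had 0 counts (adjusted p = 0.032). HOXD3 was at 1.20 and 1.92 CPM against 1 count in the WT libraries, a ratio of 43.2 (95% counting interval 7.54 to 1726, adjusted p = 0.017). Its neighbours were weaker and uneven. HOXD8 was at 0.309 and 1.24 CPM, and HOXD4, HOXD9, HOXD10 and HOXD11 were at 0 to 0.555 CPM in these libraries. None of the 5 passed the filter at day 10, so they have no test. The 9 HOXD genes summed to 2.29 and 4.48 CPM in ZEB2 shRNA cells and to at most 0.258 CPM in WT and 0.0477 CPM in NKX2-5 shRNA cells. The 9 HOXC genes summed to 2.19 and 2.52 CPM in ZEB2 shRNA, 0.668 and 0.567 CPM in NKX2-5 shRNA and 0.103 and 0 CPM in WT cells at day 10. HOXC reads also appeared earlier, in WT cells as well. HOXC4 at day 2 was at 0.303 and 0.180 CPM in ZNF503 shRNA cells and at 0.0643 and 0.552 CPM in WT cells. HOXC13 at day 6 was at 0.316 and 0.1475 CPM in ZEB2 shRNA cells and at 0.130 and 0.313 CPM in WT cells. HOXC4 shares a region with HOXC5 and HOXC6, and HOXD3 lies opposite HAGLR.

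NKX2-5 shRNA cells at day 10 had their rises in the genes from HOXB5 on. HOXB5 was at 2.53 and 4.91 CPM against 0.361 and 0.860 in WT cells (log2 fold change 2.71 ± 0.68 SE, adjusted p = 0.016). HOXB6 was at 5.68 and 8.13 CPM (log2 fold change 2.81 ± 0.52 SE, adjusted p = 0.0052). HOXB7 was at 1.19 and 1.65 CPM against 2 counts in WT cells, a ratio of 20.4 (95% counting interval 5.42 to 173, adjusted p = 0.019). The anterior genes did not pass: HOXB2 was at 5.87 and 8.03 CPM (adjusted p = 0.23) and HOXB3 at 19.2 and 41.9 CPM (adjusted p = 0.19), and HOXB4, at 11.6 and 25.5 CPM, was above both WT libraries (adjusted p = 0.062). Central genes (paralog groups 4 to 8) made up 55.0% to 55.7% of the HOX signal per kb in NKX2-5 shRNA cells, against 19.3% to 37.2% in WT and 43.7% to 46.1% in ZEB2 shRNA cells, ranges that did not overlap. At day 6 the shares were 46.7% to 47.8% in NKX2-5 shRNA cells, 17.7% to 34.8% in WT, 24.7% to 26.6% in ZEB2 and 25.5% to 26.4% in ZNF503 shRNA cells. The summed level of central genes in NKX2-5 shRNA cells that day, 4.23 and 4.35 CPM, lay inside the WT range of 3.25 to 8.68 CPM, while anterior genes were at 5.74 and 5.85 CPM against 14.6 and 17.7 CPM. With 2 libraries against 2, an exact permutation test cannot go below p = 0.333, so no p is given for these shares. HOXB13 at day 10 was at 0.0954 and 0.756 CPM in NKX2-5 shRNA cells and at 1.48 and 1.75 CPM in ZEB2 shRNA cells, against 0.722 and 0.860 CPM in WT cells, and did not pass in either (adjusted p = 0.44 and 0.40).

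In NKX2-5 shRNA cells 5 of the 12 members tested at day 10 were higher (23.3% of all 17004 genes) and 0 lower (20.6%), and 1 passed the thresholds (7.31%). ZEB2 shRNA cells had 7 higher (10.6%) and 0 lower (7.67%), and 1 passed them (1.46%). HOXC4 and HOXD3 passed the filter on low counts through the ZEB2 shRNA libraries. CDX1 passed it through the NKX2-5 shRNA libraries, and HOXB7 through shRNA libraries and not those of WT cells. This fixed their direction, so neither the 5 nor the 7 can be read as support against the share of all genes. The one member past the thresholds in each was CDX2. Single libraries mattered here. CDX2 alone kept 5% FDR in ZEB2 shRNA cells with any 1 of the 4 libraries left out, while HOXB3, HOXB4, HOXB5, HOXC4 and HOXD3 lost it with each of the 4 left out and HOXB6 with 3 of them (adjusted p from 0.054 to 0.21). In NKX2-5 shRNA cells CDX2 and HOXB6 kept it, while HOXB5 (0.12) and HOXB7 (0.097) lost it without WT replicate 3 and CDX1 with 3 of the 4 left out (adjusted p from 0.066 to 0.15). Marker sums again differed. The cardiac list summed to 12808 to 15647 CPM in WT, 94.6 to 395 CPM in NKX2-5 shRNA and 3588 to 5378 CPM in ZEB2 shRNA cells. For hepatic and endoderm markers the sums were 1468 to 3605, 27024 to 38617 and 6446 to 7812 CPM. Blood markers summed to 2144 to 2666 CPM in NKX2-5 shRNA cells, against 19.1 to 104 CPM in WT and 24.6 to 25.5 CPM in ZEB2 shRNA cells. The 6 trophoblast markers summed to 248 to 269 CPM in ZEB2 shRNA cells, 120 to 136 CPM in NKX2-5 shRNA cells, where CGA and TFAP2A had 0 counts, and 64.3 to 78.6 CPM in WT cells. HAND1, which is also a heart gene, made up most of these sums, at 174 and 170 CPM, 99.03 and 115 CPM, and 51.9 and 61.7 CPM, while GATA3 was at 34.8 and 26.8, 7.16 and 5.77, and 9.54 and 14.9 CPM in the same order. The part of these cells in the HOX and CDX differences was not tested.

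The CDX genes followed separate courses, and their upstream sequences are shown because CDX2 and CDX4 are close relatives that were on at opposite ends of the protocol, with HOXD3 as the HOXD gene that passed the test. The sequences are the 250 bases before the start in the RefSeq table for GRCh38.p14, 5′ to 3′, in lower case with motif matches in capitals. Of the members 22 were in that table.
CDX2 promoter, chr13:27969316-27969565, minus strand: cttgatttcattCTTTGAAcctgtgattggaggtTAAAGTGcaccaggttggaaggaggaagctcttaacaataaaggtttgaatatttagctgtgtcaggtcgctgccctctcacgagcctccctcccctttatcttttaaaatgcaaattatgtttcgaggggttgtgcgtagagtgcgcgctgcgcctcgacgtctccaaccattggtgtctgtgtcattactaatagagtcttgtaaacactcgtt
CDX4 promoter, chrX:73446803-73447052, plus strand: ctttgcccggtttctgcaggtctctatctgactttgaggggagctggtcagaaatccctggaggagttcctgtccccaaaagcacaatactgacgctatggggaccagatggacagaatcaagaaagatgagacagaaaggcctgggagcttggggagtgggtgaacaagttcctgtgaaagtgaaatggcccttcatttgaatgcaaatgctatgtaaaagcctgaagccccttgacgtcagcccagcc
HOXD3 promoter, chr2:176157057-176157306, plus strand: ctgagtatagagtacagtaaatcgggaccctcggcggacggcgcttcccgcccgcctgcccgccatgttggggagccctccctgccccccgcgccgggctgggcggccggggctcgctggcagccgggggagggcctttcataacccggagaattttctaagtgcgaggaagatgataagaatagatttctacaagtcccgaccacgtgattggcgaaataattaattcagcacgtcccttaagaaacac
Motifs were searched on both strands, and the share of all 35116 windows in the table that hold each is given beside the members. The TATA box, searched as TATAAA, was in 10.7% of windows and in 4 of the 22 members, HOXA3, HOXA9, HOXA10 and HOXD13. A CDX type site, TTTATG, which read on the other strand differs from the TATA box in 1 letter, was in 9.64% of windows and in 3 members, HOXA3, HOXA9 and HOXD8. Of 2 TCF/LEF type sites that differ in their last letter, CTTTGAA was in 3.8% of windows and in 3 members, HOXB1, HOXD12 and CDX2. The other, CTTTGAT, was in 2.26% of windows and in 0 members. A ZEB type E-box, CAGGTG, was in 17.5% of windows and in HOXA7. An NKX2 type site, TNAAGTG, was in 8.73% of windows and in HOXA4, HOXB1 and CDX2, and a nuclear receptor site, AGGTCA, was in 12.1% of windows and in 0 members. The capitals in CDX2 are its TCF/LEF and NKX2 type letters, and the CDX4 and HOXD3 windows hold none of those searched. A match describes the letters and no bound site, and for HOXD3, which has several transcripts, the start in the table need not be the one used here.

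**Figure D5:**
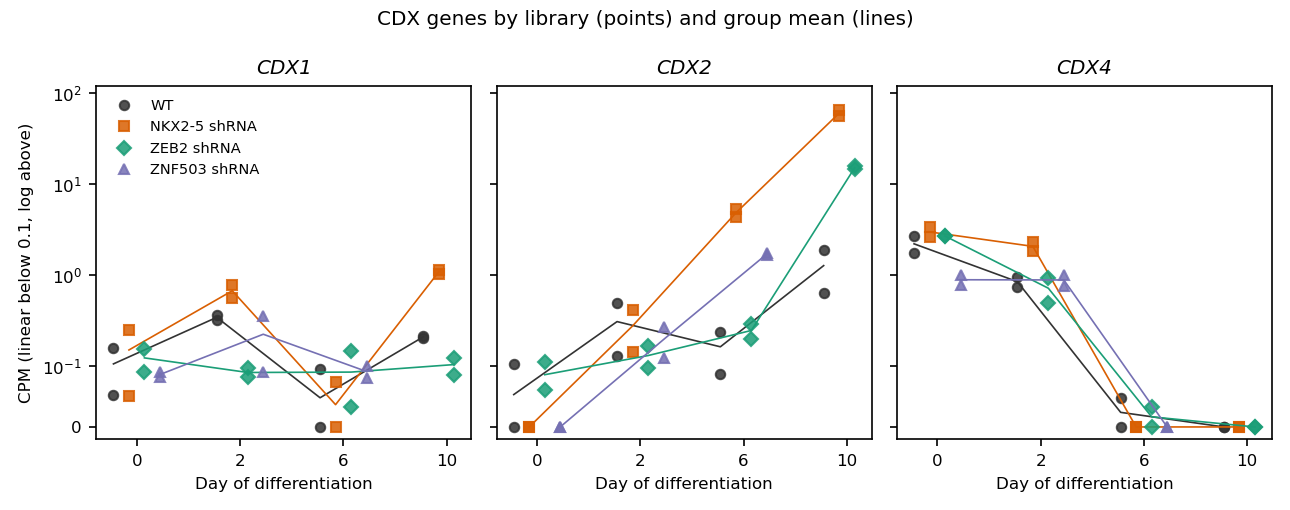
CPM of CDX1, CDX2 and CDX4 by day and line, on an axis that is linear below 0.1 and logarithmic above; points are libraries and lines join group means. CDX4 falls to 0 or a few counts by day 6 in each line, while CDX2 is higher at day 10 than at day 6, and its level is highest in NKX2-5 shRNA cells, which lie between 55.7 and 65.0 CPM.

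CDX2 reached 55.7 and 65.0 CPM in NKX2-5 shRNA cells and 15.7 and 14.5 CPM in ZEB2 shRNA cells at day 10, against 1.91 and 0.645 CPM in WT cells. The log2 fold changes were 5.44 ± 0.42 SE (adjusted p = 0.00025) and 3.43 ± 0.40 SE (adjusted p = 0.0033), and the libraries of the 3 groups did not overlap. Compared directly, NKX2-5 shRNA cells were above ZEB2 shRNA cells (log2 fold change 2.01 ± 0.34 SE, adjusted p = 0.0095). Per kb, CDX2 at 17.5 ± 1.91 CPM per kb (SD, n = 2) was above every HOX gene in NKX2-5 shRNA cells at day 10, where HOXB4 stood at 9.26 ± 4.90 and HOXB3 at 9.25 ± 4.86. CDX1, which is expressed with CDX2 in gut epithelium, was at 1.14 and 1.04 CPM in NKX2-5 shRNA cells against 0.206 and 0.215 in WT cells (log2 fold change 2.36 ± 0.69 SE, adjusted p = 0.029). In ZEB2 shRNA cells it was at 0.124 and 0.0853 CPM. CDX4 had no count in any day 10 library.

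Whether an effect changed from day 6 to day 10 was tested directly for the lines with both days, with 13 members in the fit. In NKX2-5 shRNA cells 2 members passed (26% of all genes), HOXB3 and HOXB4. HOXB3 moved by 2.06 on the log2 scale relative to WT (SE 0.53, adjusted p = 0.014) and HOXB4 by 2.56 ± 0.73 SE (adjusted p = 0.022), from below WT at day 6. CDX2 did not pass in this line (0.75 ± 0.64 SE, adjusted p = 0.42). In ZEB2 shRNA cells 1 member passed (7.04% of genes): CDX2 moved by 3.12 ± 0.72 SE (adjusted p = 0.025), from 0.200 and 0.295 CPM at day 6, close to WT. Without WT day 6 replicate 2 these 3 had adjusted p = 0.079, 0.11 and 0.48, and each also missed 5% FDR without at least 2 other libraries, with adjusted p from 0.052 to 0.15.

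The shRNA lines were also compared with one another. At day 6 HOXB2, HOXB3 and HOXB4 differed between all 3 lines, and the order of levels for each was ZEB2, then NKX2-5, then ZNF503 shRNA cells. HOXB2 was higher in NKX2-5 than in ZNF503 shRNA cells by 2.15 on the log2 scale (SE 0.35, adjusted p = 0.0021) and in ZEB2 than in ZNF503 shRNA cells by 4.57 ± 0.34 SE (adjusted p = 6.2e-07). CDX2 had another order, with NKX2-5 above ZNF503 (log2 fold change 1.49 ± 0.34 SE, adjusted p = 0.014) and ZNF503 above ZEB2 shRNA cells (log2 fold change of ZEB2 against ZNF503 -2.91 ± 0.46 SE, adjusted p = 0.00028). NKX2-5 against ZNF503 shRNA had 6 higher (5.92% of genes) and 0 lower (8.81%), with 2 past the thresholds (0.395%), and CDX2, HOXB5 and HOXB6 lost 5% FDR with 3 or more of the 4 libraries left out singly. NKX2-5 against ZEB2 shRNA had 2 higher (21.3%) and 5 lower (23.1%), with 4 past the thresholds (4.59%), among them HOXB13 (log2 fold change -4.13 ± 0.62 SE, adjusted p = 0.00018). Of these HOXA3 missed 5% FDR without ZEB2 shRNA replicate 1 (0.093). ZEB2 against ZNF503 shRNA had 7 higher (25.6%) and 2 lower (23.7%), which is every member tested, with 7 past the thresholds (3.48%). The limit that the filter sets on the day 6 counts against WT holds for these counts between lines too. HOXA3, HOXB5 and HOXB13 missed 5% FDR without ZEB2 shRNA replicate 1 (0.099, 0.061 and 0.11), HOXB6 without ZNF503 shRNA replicate 1 (0.078) and HOXB13 without ZNF503 shRNA replicate 2 (0.052).

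At day 2 NKX2-5 against ZNF503 shRNA cells had 3 higher, HOXB2, CDX1 and CDX4 (19.8% of genes), and 2 lower, HOXB1 and HOXB13 (19.7%), with 2 past the thresholds (3.98%), HOXB1 and HOXB2. HOXB1 passed the filter through libraries other than those of NKX2-5 shRNA cells, and HOXB2 through libraries other than those of ZNF503 shRNA cells. This fixed their direction, so these counts cannot be read as support against the shares of all genes. CDX4 was at 1.84 and 2.31 CPM against 1.01 and 0.765 (log2 fold change 1.19 ± 0.37 SE, adjusted p = 0.020), and only HOXB13 kept 5% FDR with each library left out. At day 10 NKX2-5 against ZEB2 shRNA cells had 2 higher, CDX1 and CDX2 (10.5%), and 3 lower, HOXB2, HOXB3 and HOXD3 (10.8%), with 0 past the thresholds (1.95%). The filter fixed the direction of CDX1, which passed it through NKX2-5 shRNA libraries, and of HOXD3, which passed it through ZEB2 shRNA libraries. DESeq2 gave 1 and the exact test 3, and 9 members had an unadjusted p under 0.05. HOXB2 was lower by 1.53 on the log2 scale (a log2 fold change of -1.53 ± 0.33 SE, adjusted p = 0.019), and HOXD3 had 1 count against 84, a ratio of ZEB2 to NKX2-5 shRNA of 63.4 (95% counting interval 11.1 to 2534, adjusted p = 0.012). These comparisons share libraries with those against WT, so their calls are not independent. None of the 5 kept 5% FDR when either ZEB2 shRNA library was left out.

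RNAs made within the clusters were compared with the genes beside them. Of the 26 listed, 18 were matched and 1 or 2 passed the filter at days 6 and 10. HOTAIRM1, an RNA of the HOXA cluster named after its values were seen, was at 0.515 and 0.601 CPM in NKX2-5 shRNA cells at day 6 against 0.0867 and 0.0481 CPM in WT cells, where it held 3 counts or fewer, and passed as higher (adjusted p = 0.0076). It passed the filter through shRNA libraries and not those of WT cells, which fixed its direction. HOXB-AS1, transcribed opposite HOXB2 and HOXB3, was at 1.21 and 2.02 CPM in WT cells at day 6 and had 0 and 1 count in ZNF503 shRNA cells, where it passed as lower (adjusted p = 4.6e-05). It was lower in NKX2-5 shRNA cells too, at 0.257 and 0.240 CPM (log2 fold change -2.72 ± 0.47 SE, adjusted p = 0.00041). HOXB-AS1 passed the filter at day 6 through WT and ZEB2 shRNA libraries, which fixed its direction in these comparisons. In NKX2-5 shRNA cells at day 10 it was at 0.143 and 0.851 CPM against 6.03 and 5.92 in WT cells (log2 fold change -3.57 ± 0.70 SE, adjusted p = 0.0063), while HOXB2 and HOXB3 did not pass in that comparison. In ZEB2 shRNA cells, at 4.29 and 2.94 CPM, it did not pass (adjusted p = 0.43), while HOXB3 was higher.

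HOX proteins bind DNA with PBX, MEIS and PKNOX cofactors, of which 8 of 9 were matched. In WT cells 5 of the 8 rose and 1 fell from day 0 to day 6 (31.3% and 29.6% of all genes; median 0.99 on the log2 scale, all genes 0.03). MEIS1 rose to 282 and 202 CPM and MEIS2 to 141 and 112 CPM. Against WT at day 6, 6 of 8 cofactors were lower and 0 higher in NKX2-5 shRNA cells (24.7% and 24.4% of all genes; median -1.69, all genes -0.00156). In ZNF503 shRNA cells 5 were lower and 0 higher (28.5% and 27.2% of all genes; median -1.25, all genes -0.03). MEIS2 had the largest called fall in both, to 4.67 and 7.27 CPM (log2 fold change -4.39) and to 9.01 and 11.6 CPM (log2 fold change -3.62). In ZEB2 shRNA cells 2 were lower and 0 higher, where 11% of all genes were called in either direction. At day 10, 6 were lower and 1 higher in NKX2-5 shRNA cells (20.6% and 23.3% of all genes), and 1 was lower and 1 higher in ZEB2 shRNA cells (7.67% and 10.6%), where HOXB3 to HOXB6 had risen.

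Signals that act upstream of the clusters and the CDX genes were read from a list of 21 genes. At day 2, 11 of 18 tested were lower and 1 higher in ZNF503 shRNA cells (13.8% and 13.1% of all genes; median -0.85, all genes -0.01), and 9 were lower and 1 higher in NKX2-5 shRNA cells (13.6% and 13% of all genes; median -0.46). CYP26A1, which breaks down retinoic acid, was at 74.4 and 100.1 CPM in ZNF503 shRNA cells against 618 and 657 in WT cells at day 2 (log2 fold change -2.93). FGF17 (log2 fold change -2.61) and TBX6 (log2 fold change -2.40) were lower with it. At day 6, 7 of 14 were lower and 2 higher in NKX2-5 shRNA cells (24.7% and 24.4% of all genes) and 6 lower and 3 higher in ZNF503 shRNA cells (28.5% and 27.2%), with FGF8, WNT5A and LEF1 lower in both. CYP26A1 was by then higher in ZNF503 shRNA cells, at 23.7 and 24.2 CPM against 1.86 and 2.17.

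The 20 Polycomb and trithorax genes were all tested. From day 0 to day 6 in WT cells 10 rose and 7 fell (31.3% and 29.6% of all genes; median 0.25, all genes 0.03), and PHC1, a Polycomb subunit, fell past the thresholds (log2 fold change -3.45, adjusted p = 5.1e-09). Against WT at day 6, 7 were higher and 9 lower in NKX2-5 shRNA cells (24.4% and 24.7% of all genes; median -0.04), and 8 higher and 8 lower in ZNF503 shRNA cells (27.2% and 28.5%; median 0.22). From day 0 to day 10 in WT cells 12 rose and 6 fell (39.1% and 34.7% of all genes), with a median of 0.90 beside 0.10 for all genes. At day 10 the counts were 0 higher and 5 lower in NKX2-5 shRNA cells (23.3% and 20.6% of all genes; median -0.37, all genes 0.03) and 0 higher and 1 lower in ZEB2 shRNA cells (10.6% and 7.67%). None of the 20 passed the thresholds in any of these comparisons of a line with WT. Of 6 neighbours of the HOX clusters and ParaHox genes, PDX1, a foregut regulator that lies near CDX2 on chromosome 13, was at 4.72 and 2.41 CPM in NKX2-5 shRNA cells at day 10 against 0.103 and 0 CPM in WT cells (adjusted p = 0.0029). It passed the filter through shRNA libraries and not those of WT cells, which fixed its direction. Of the 3 neighbours tested that day, 2 were higher and 0 lower in NKX2-5 shRNA cells (23.3% and 20.6% of all genes). In ZEB2 shRNA cells 1 was higher and 0 lower (10.6% and 7.67%).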

How the data were processed

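The table of the whole series holds raw read counts per RefSeq transcript, which the authors deposited without normalization. Per the study's methods and the submitters' processing notes, paired-end reads of stranded total RNA libraries were mapped to hg19 (GRCh37) with TopHat 2.0.14, Bowtie 2.2.1.0 and SAMtools 0.1.19.0 and counted over gene regions with RSeQC; whether counting used strand is not given in the sources used here. The 41627 accessions were matched to symbols (40285 matched), and the transcript with the largest total stood for each of 23189 genes. Lengths for levels per kb are the summed exons of the transcript tagged MANE Select in the GENCODE annotation for GRCh37. That transcript need not be the RefSeq transcript that was counted. In 4 of 34 columns the rows do not follow the accessions and these were left out.

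Counts were tested with edgeR 4.0.16 in R 4.3.3 (TMM, filterByExpr, quasi-likelihood fit and test, Benjamini-Hochberg adjustment over all genes tested), with 1 fit per day over the lines, 1 over the WT days and 1 over days 6 and 10 for the change of an effect. Genes were called at 5% FDR and at the study's thresholds, which were 10% FDR with a 2-fold change for day 0 or a 4-fold change for day 2, and 1% FDR with an 8-fold change later. Every member past 5% FDR was named, and of the other lists up to 4 genes past the thresholds and at 1 CPM. The members and lists were chosen with earlier results of these data known. Where a group held 3 counts or fewer per library, a bound on that floor, or a ratio with an exact 95% interval, stands in place of the fitted fold change, and both cover counting error only. Replicates differed by more than sampling noise in each group (chi-square per gene from 5.16 to 102), so none was counted as a repeat of another. Replicate numbers are not described as batches, and deviations of libraries with the same number did not go together throughout (r from -0.299 to 0.44, with 6 of 6 pairs above 0 at day 2, from 0.00314 to 0.44). Only the day 6 fit was tried on simulated counts, and the outcome is not given here. Alternatives were DESeq2 1.42.0 and edgeR's exact test, no TMM factors, no filter, all transcripts of a gene summed, 1 fit over all groups, a replicate block and each library left out. Promoter sequences are RefSeq's for GRCh38.p14.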

Additional observations from a re-analysis of the deposited data

Results flagged for a closer look

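In each of 3 cases the effect of an shRNA at day 10 differed from its effect at day 6 in a test of the difference itself (edgeR's quasi-likelihood test, adjusted over all genes). The NKX2-5 shRNA effect on HOXB3 was 2.06 higher on the log2 scale at day 10 (standard error 0.53, adjusted p = 0.0141), and the libraries were at 2.68 and 2.04 CPM at day 6, under both WT libraries, and at 19.2 and 41.9 CPM at day 10. For HOXB4 in the same line the difference was 2.56 (standard error 0.73, adjusted p = 0.022), from 1.80 and 1.52 CPM at day 6 to 11.6 and 25.5 CPM at day 10. The ZEB2 shRNA effect on CDX2 was 3.12 higher at day 10 (standard error 0.72, adjusted p = 0.025), from 0.200 and 0.295 CPM to 15.7 and 14.5 CPM. Without WT day 6 replicate 2 the 3 differences were 1.58 (adjusted p = 0.079), 2.01 (0.11) and 2.12 (0.48). Groups of 2 libraries cannot show a single library that stands apart, so none was looked for.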

How the results depend on the processing

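Among the 94 values of single members past 5% FDR, 612 of 635 values under other settings kept their direction and their side of 5% FDR, 23 kept the direction alone and 0 reversed. With each library left out in turn, 274 of 388 values kept 5% FDR, 114 did not, and 0 reversed. One value without an adjusted p from DESeq2 was left out of these counts. Of 150 summed levels, 102 moved by more than the spread between replicates when all transcripts of a gene were summed, a step that also raises the library totals, and 21 moved without TMM factors. HOXB2 to HOXB6 have 1 transcript each, so summing left their counts unchanged while the totals rose. With summed transcripts they were at 18.5 CPM in WT, 31.6 in NKX2-5 shRNA and 70.2 in ZEB2 shRNA cells at day 10.

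The counts of members past the study's thresholds moved as follows, and the cause was not tested. For WT day 2 against day 0, where 1 passed, the exact test gave 2, 1 fit over all libraries gave 3, and leaving out a library gave 0 to 2. For WT day 6 against day 2, where 4 passed, 5% FDR alone gave 7. WT day 10 against day 6, with 0, gave 2 at 5% FDR alone. NKX2-5 shRNA against WT at day 2, with 0, gave 2 at 5% FDR alone and 1 with no filter, with summed transcripts or by the exact test. At day 6, with 4, it gave 7 at 5% FDR alone, and at day 10, with 1, it gave 5 at 5% FDR alone and 2 by DESeq2 or the exact test. ZEB2 shRNA against WT at day 10, with 1, gave 7 at 5% FDR alone, 2 without TMM factors, with no filter or by DESeq2, 4 by the exact test and 3 in 1 fit. NKX2-5 against ZNF503 shRNA, with 2 on each day, gave 5 at day 2 and 6 at day 6 at 5% FDR alone, and at day 6 gave 4 with no filter or by the exact test and 1 with summed transcripts. NKX2-5 against ZEB2 shRNA gave 7 at 5% FDR alone at day 6, with 4, and at day 10, with 0, gave 5 at 5% FDR alone, 1 by DESeq2, 3 by the exact test and 2 in 1 fit. The change of the ZEB2 shRNA effect, with 1, gave 2 by DESeq2 and 2 in 1 fit.

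Leaving out 1 library gave 3 to 6 members for WT day 6 against day 0, 4 to 6 for day 10 against day 0, and 3 to 5 for day 6 against day 2. Against WT, ZNF503 shRNA gave 0 to 2 at day 0, 0 to 1 at day 2 and 4 to 5 at day 6, NKX2-5 shRNA 0 to 1 at day 2, 1 to 4 at day 6 and 1 to 2 at day 10, and ZEB2 shRNA 0 to 0 at day 10. NKX2-5 against ZNF503 shRNA gave 1 to 3 at day 2 and 1 to 2 at day 6, NKX2-5 against ZEB2 shRNA 2 to 4 at day 6 and 0 to 3 at day 10, and ZEB2 against ZNF503 shRNA 3 to 6. The changes from day 6 to day 10 gave 0 to 7 for NKX2-5 and 0 to 1 for ZEB2 shRNA. In these fits a lone library was assumed to vary like the other groups.

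With the replicate number as a block, ZNF503 shRNA against WT at day 6 had 4 members past the thresholds, ZEB2 shRNA against WT at day 10 had 4 and NKX2-5 against ZNF503 shRNA at day 6 had 1, and the other counts stayed within 1.5 times. Of single values, 65 of 68 kept 5% FDR under the block. WT day 10 and NKX2-5 shRNA day 10 share no number, so no block could be fitted there. The pairing at day 10 had r = -0.239, and a crossed replicate block, chosen after seeing the data, also gave 4. With 2 libraries per group and 9189943 to 29549874 counts at day 10, members under about 0.3 CPM were at the limit of detection, and a p over the threshold does not show equal levels.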
